A study of Homo sapiens with 4 samples.

Results

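The proteasome genes were taken as every protein-coding gene whose symbol begins with PSM, followed by a letter from A to G and a digit. The rule found 50 members among the 58884 genes of the table. They encode 8 alpha-ring subunits and 11 beta subunits of the 20S core, 17 subunits of the 19S cap, 7 assembly chaperones, 4 activators and 1 inhibitor. The other 2, PSMC3IP and PSME3IP1, carry a matching symbol but name proteins that bind a proteasome component. RNA was sequenced from B-CPAP and TPC-1, 2 established human lines of papillary thyroid carcinoma. The 4 groups were B-CPAP at 40 °C, B-CPAP at 37 °C, TPC-1 at 40 °C and TPC-1 at 37 °C, with 1 library each, and neither line carried a further treatment in the labels. The flasks were held under water at the stated temperature, and the labels give the length of that exposure in 3 ways, as 15 min, 20 min and 24 h. The study asked how a short thermal stress alters these cells.

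The 26S proteasome is the main protease of the cytosol and the nucleus. Its 20S core is a barrel of stacked rings, in which the outer alpha rings gate the entry and the inner beta rings hold the catalytic sites, and the 19S cap recognises ubiquitin chains, removes them and unfolds the substrate with a ring of ATPases. Interferon replaces the catalytic subunits with those of the immunoproteasome, which favours peptides for MHC class I, and the transcription factor NFE2L1 raises the genes of all parts together when the protease is impaired. Thermal stress unfolds proteins and so feeds substrate to this system.

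Expression was given as TPM, a read count scaled by gene length and then to the same total in every library. The estimated depth ran from 20703478 to 24465080 reads. Of the thyroid follicular markers, PAX8 stood between 98.9 and 284 TPM, while SLC5A5 was listed at 0 in every library and TG reached at most 0.746 TPM. NKX2-1, a thyroid transcription factor, had 7.90 and 8.60 TPM in B-CPAP and was listed at 0 in TPC-1. The leukocyte markers PTPRC and CD3E were listed at 0 throughout. In bulk RNA, fewer cells of a kind and less RNA per cell cannot be told apart.

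Of the interferon-inducible members, PSMB9 had more RNA in B-CPAP than in TPC-1, and PSMB8, PSMB10, PSME1 and, only slightly, PSME2 had less. The sequences shown here are promoter windows of these members and of TAP1, a peptide transporter gene that lies head to head with PSMB9. Each runs from 250 bases before a gene's start to 50 bases after it, 5′ to 3′ on the gene's own strand, and comes from RefSeq on GRCh38.p14. The windows are chr6:32843998-32844297 on the minus strand for PSMB8, chr6:32853942-32854241 on the plus strand for PSMB9, chr6:32853655-32853954 on the minus strand for TAP1, chr16:67936801-67937100 on the minus strand for PSMB10, chr14:24135944-24136243 on the plus strand for PSME1 and chr14:24146561-24146860 on the minus strand for PSME2. PSMB8 and TAP1 each have a further window, not shown. Capitals mark matches on either strand to 2 copies of GAAA spaced by 2 bases, the core of an interferon response element, to TGACNNNGC, the core of an antioxidant response element, and to CCAAT, where N is any base.
PSMB8: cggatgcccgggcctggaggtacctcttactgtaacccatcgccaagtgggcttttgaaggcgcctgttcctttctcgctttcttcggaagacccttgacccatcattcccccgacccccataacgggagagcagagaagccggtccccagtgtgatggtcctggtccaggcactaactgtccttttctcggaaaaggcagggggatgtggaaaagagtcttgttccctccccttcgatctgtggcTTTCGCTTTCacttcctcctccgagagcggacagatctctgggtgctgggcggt
PSMB9: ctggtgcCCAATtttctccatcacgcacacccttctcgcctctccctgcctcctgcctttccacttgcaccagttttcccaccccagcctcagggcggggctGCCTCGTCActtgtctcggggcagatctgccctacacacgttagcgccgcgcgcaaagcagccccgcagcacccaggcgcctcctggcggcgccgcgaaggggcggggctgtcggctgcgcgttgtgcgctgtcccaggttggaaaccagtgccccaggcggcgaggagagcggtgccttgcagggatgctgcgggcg
TAP1: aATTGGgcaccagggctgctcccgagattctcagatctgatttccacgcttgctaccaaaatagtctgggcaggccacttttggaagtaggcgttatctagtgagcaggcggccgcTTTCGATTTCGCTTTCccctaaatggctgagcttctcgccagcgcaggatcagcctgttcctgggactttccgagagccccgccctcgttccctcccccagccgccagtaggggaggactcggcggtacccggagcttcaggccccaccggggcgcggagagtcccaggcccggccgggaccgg
PSMB10: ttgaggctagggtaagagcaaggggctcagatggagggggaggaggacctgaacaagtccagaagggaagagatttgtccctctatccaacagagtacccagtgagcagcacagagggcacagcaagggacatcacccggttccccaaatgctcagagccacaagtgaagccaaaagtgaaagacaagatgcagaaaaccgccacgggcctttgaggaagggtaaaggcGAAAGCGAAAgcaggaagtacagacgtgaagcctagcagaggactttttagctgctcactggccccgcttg
PSME1: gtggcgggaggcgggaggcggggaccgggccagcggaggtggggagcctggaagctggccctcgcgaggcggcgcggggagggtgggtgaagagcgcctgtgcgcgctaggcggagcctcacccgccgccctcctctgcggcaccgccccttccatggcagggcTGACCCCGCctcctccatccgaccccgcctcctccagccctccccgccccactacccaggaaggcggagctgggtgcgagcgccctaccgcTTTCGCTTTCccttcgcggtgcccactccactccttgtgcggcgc
PSME2: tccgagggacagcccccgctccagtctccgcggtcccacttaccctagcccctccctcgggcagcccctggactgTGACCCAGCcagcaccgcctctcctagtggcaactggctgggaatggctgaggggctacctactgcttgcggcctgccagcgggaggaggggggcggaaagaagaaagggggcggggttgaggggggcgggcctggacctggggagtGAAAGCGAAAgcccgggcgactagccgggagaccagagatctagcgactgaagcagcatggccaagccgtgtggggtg

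The PSMB8, PSMB10, PSME1 and PSME2 windows each held 1 match to the interferon core, whose first base lay at offsets from -28 to 5 of the start. The PSMB9 window held none. The TAP1 window, on the opposite strand, overlaps it only by the first few bases of each. It held 2 matches that share bases, at offsets -134 and -128 from the TAP1 start, outside that overlap and beyond the reach of the PSMB9 window. In all, 44 of the 50 members had a window in the table, and PSMA7, PSMB1, PSMB6, PSMB7, PSMD4 and PSMG3 had none. The interferon core was in the windows of 7 of the 44 members (15.9%), namely PSMA4, PSMB4, PSMB8, PSMB10, PSME1, PSME2 and PSMG4, and in 4.38% of all genes with a window. The antioxidant core, which NFE2L1 and NFE2L2 are known to bind, was in 15 of the 44 (34.1%) and in 16.1% of all genes. CCAAT was in 22 of the 44 (50%) and in 39.7% of all genes. A heat shock element of 3 units, GAA and TTC in turn spaced by 2 bases, on either strand, was in none of the members and in 0.608% of all genes. A match describes the letters of a window only.

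Of the 50 members, 48 had a mean of at least 1 TPM over the 4 libraries and entered the tests. PSMA8, an alpha subunit of the testis, was listed at 0 in every library. PSMB11, the catalytic subunit of thymic cortical epithelium, had 0.115 TPM in B-CPAP at 37 °C and was listed at 0 in the other 3 libraries. PSMA2 lay just inside the minimum, at 1.59 and 0.658 TPM in B-CPAP at 40 °C and 37 °C, and at 0.981 and 0.781 TPM in TPC-1. The 48 members summed to 8260 TPM in B-CPAP at 40 °C and 8682 TPM at 37 °C, and to 8304 and 8758 TPM in TPC-1. The total was lower at 40 °C in both lines and was nearly the same in both lines at a given temperature. Mitochondrially encoded genes took 23.9% and 22.0% of TPM in B-CPAP at 40 °C and 37 °C and 19.9% and 16.8% in TPC-1. Rescaled to a total of 1000000 over all other genes, the members summed to 10848 and 11132 in B-CPAP and to 10366 and 10526 in TPC-1.

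**Figure D1:**
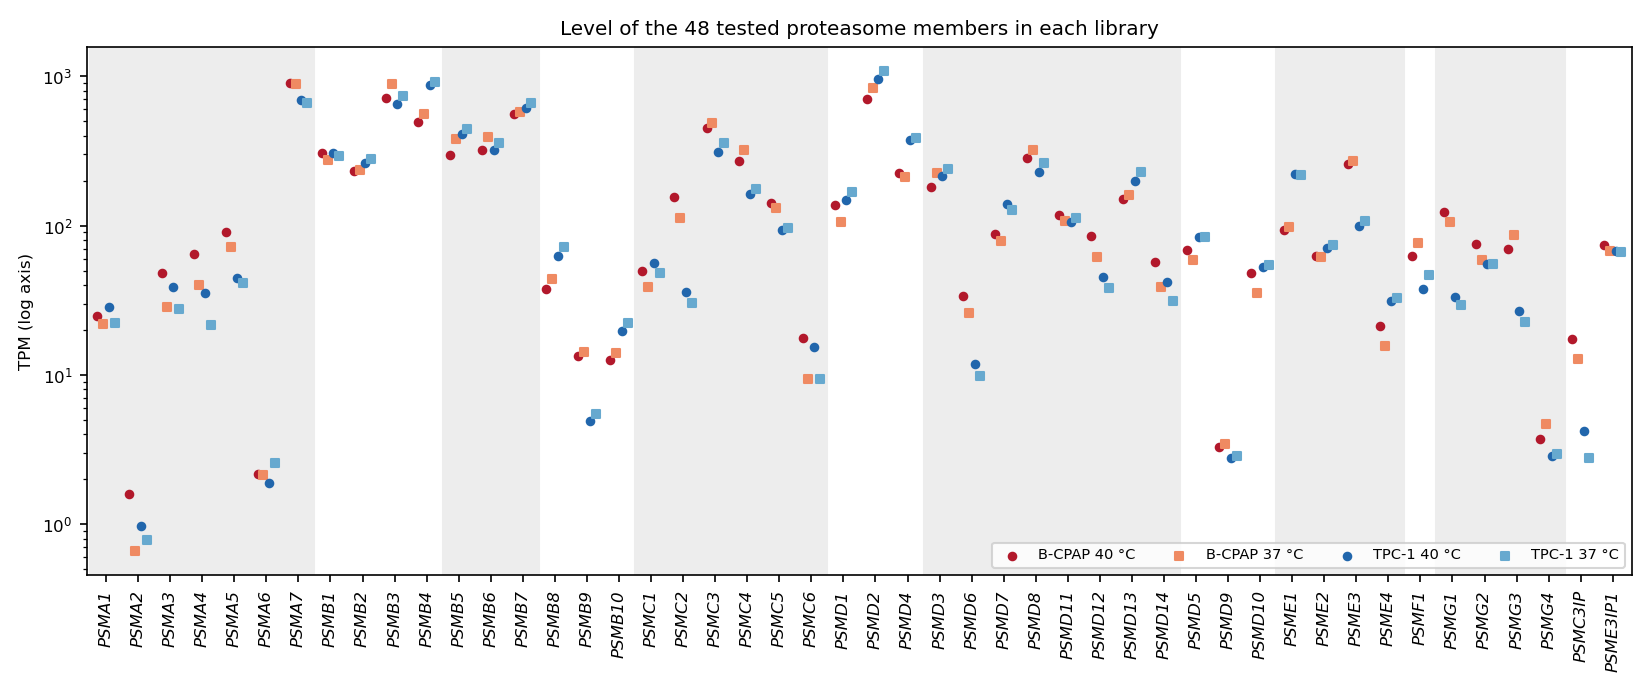
TPM (log axis) of the 48 tested members in each of the 4 libraries, ordered by role, with shaded bands separating the roles. Levels spread from below 1 TPM for PSMA2 to 1084 TPM for PSMD2 in TPC-1 at 37 °C, and the 4 libraries of a member mostly lie close together beside that spread.

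Subunits that stand in equal numbers in the particle differed widely in RNA level. In the alpha ring PSMA7 had 900 and 892 TPM in B-CPAP at 40 °C and 37 °C and 692 and 660 TPM in TPC-1. PSMA6, which sits in the same ring, had 2.18 and 2.14 TPM in B-CPAP and 1.89 and 2.59 TPM in TPC-1. PSMA1 had 24.8 and 22.0 TPM in B-CPAP and 28.6 and 22.1 TPM in TPC-1. PSMA2, PSMA6 and PSMA1 are the 3 core subunits with the largest share of coding sequence inside exons that GENCODE 29 also gives to another gene, at 97.1%, 70.4% and 88.6%. For PSMA1 the other gene is AC018523.2, for PSMA6 it is AL121594.1 and for PSMA2 mainly AC010132.3 on the same strand and the pseudogene AC010132.2 on the opposite strand. The highest value of these 4 genes in any library was 0.131 TPM. The submitters' processing notes name featureCounts 2.0.0 as the counter, and how it treated a read lying in exons of 2 genes is not stated in the labels or notes. The kit keeps no strand, and a read from a gene cannot be told apart from one of its antisense partner.

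Over the 31 core subunits of the 20S and 19S with a tested level, Spearman's rho between level and the share of coding bases covered by another gene was -0.54 and -0.51 in B-CPAP at 40 °C and 37 °C and -0.46 and -0.45 in TPC-1. This is a description across genes of the same libraries, which are not independent. The 25 core subunits with under 10% of their coding bases covered ran from 9.39 to 1084 TPM over the 4 libraries, so none of them reached down to the levels of PSMA2 and PSMA6. PSMC6, an ATPase with 0% of its coding bases covered, was the lowest of those 25 in TPC-1 at 37 °C, at 9.40 TPM. Outside the core, PSMD9, a 19S assembly chaperone with 58.7% of its coding bases covered, ran from 2.78 to 3.47 TPM, and PSMB10, with 58.3% covered, from 12.7 to 22.4 TPM. The levels of these members are therefore uncertain, and the part of the overlap in them was not tested.

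**Figure D2:**
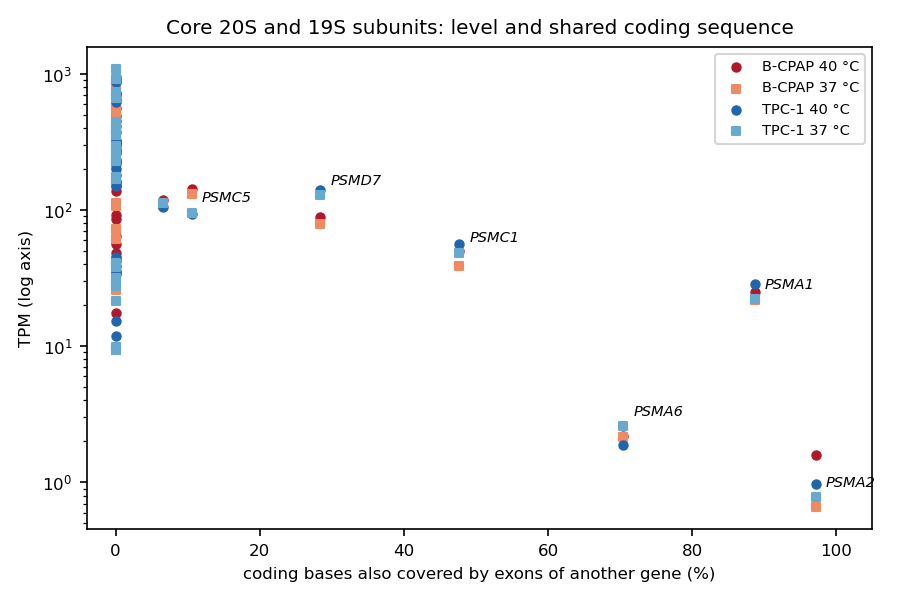
TPM (log axis) of the 31 tested core subunits against the percentage of their coding bases that exons of another gene also cover, with 1 point for each library. PSMA2 and PSMA6 lie below every subunit with no overlap, and PSMA1 lies at 22.0 to 28.6 TPM.

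At 40 °C most alpha-ring subunits had more RNA than at 37 °C on the deposited scale, though 3 of 7 in B-CPAP and 4 of 7 in TPC-1 after GC adjustment, and the catalytic and immunoproteasome subunits had less. By limma on log2(TPM + 1) with the line as a block, 0 of the 48 members passed an adjusted p of 0.05 in either direction, as did 0 of all 14912 genes tested (0%). The smallest adjusted p of a member was 0.218. With genes under a mean of 5 TPM left out of the fit, PSMA3, PSMA4, PSMC6 and PSMD14 were called higher (4 of 44 members, 9.09%, against 5.02% of all genes) and 0 lower (against 3.55%). With protein-coding genes alone, these 4, PSMC2 and PSMD12 were called higher (6 of 48, 12.5% against 7.44%), and PSMB3 and PSMD2 lower (4.17% against 3.97%). At an unadjusted p under 0.05, 9 members were higher at 40 °C, 18.8% of the members against 11.9% of all genes. They were PSMA3, PSMA4, PSMC1, PSMC2, PSMC6, PSMD6, PSMD12, PSMD14 and PSMC3IP. Another 7 were lower, 14.6% against 7.6% of all genes, namely PSMB3, PSMB5, PSMB6, PSMD2, PSMD3, PSMD8 and PSMF1.

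A line had a lone library at each temperature, and differences within a line are values without a test. The interval given with a TPM ratio is the exact 95% counting interval from the estimated reads, and it covers counting error only. In B-CPAP, 15 members were higher at 40 °C by 25% or more on the log2(TPM + 1) scale, 31.2% of the members against 30.2% of all genes, and 1 member, PSMB5, was lower by 20% or more, 2.08% against 13.2%. In TPC-1, 6 members were higher, 12.5% against 14.9%, and 0 were lower, against 6.32% of all genes. The 5 members past that threshold in both lines were PSMA3, PSMA4, PSMC6, PSMD14 and PSMC3IP, 10.4% against 7.69% of all genes. The median log2 difference of the members was 0.05 in B-CPAP and -0.04 in TPC-1, beside 0.09 and 0.03 for all genes tested. Of the members, 27 were higher at 40 °C in B-CPAP (56.2% against 58.2% of all genes) and 20 in TPC-1 (41.7% against 54.3%). By counting error alone, 23 members of B-CPAP had an interval above 1 (47.9% against 37% of all genes) and 16 below 1 (33.3% against 22.2%). In TPC-1, 16 members lay above 1 (33.3% against 21.9%) and 18 below (37.5% against 16.3%). A counting interval is narrower with more reads, so these shares depend on level as well as on the size of a difference. The median level ran from 64.7 to 86.7 TPM over the libraries for the members and from 9.70 to 11.9 TPM for all genes tested.

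**Figure D3:**
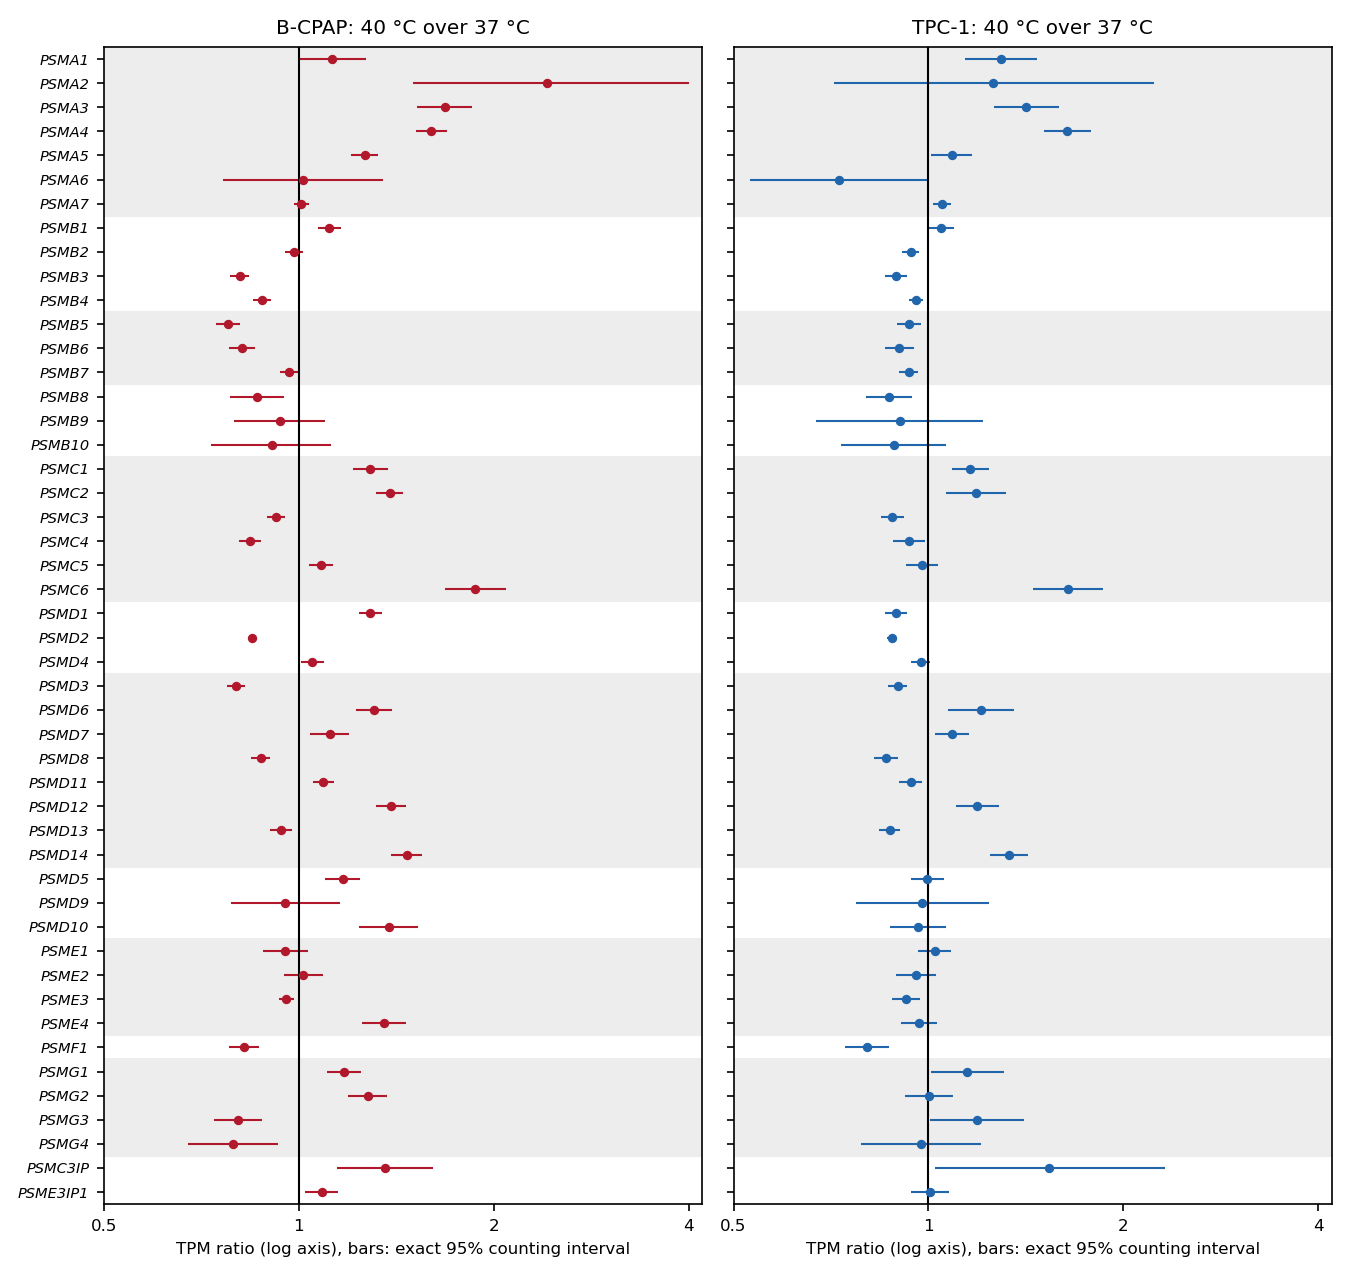
Ratio of TPM at 40 °C to TPM at 37 °C (log axis) for each tested member in B-CPAP and in TPC-1, ordered by role, with bars for the exact 95% counting interval. PSMC6, PSMA3 and PSMA4 lie to the right of 1 in both lines, and PSMB5, PSMB6, PSMB7 and PSMB8 lie to the left of 1 in both.

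In the alpha ring, 7 of 7 tested subunits were higher at 40 °C in B-CPAP and 6 of 7 in TPC-1, counts that became 4 and 5 with libraries centred on their medians, 3 and 4 after GC adjustment, and 6 and 6 with quantile normalization. PSMA4 had 64.6 TPM at 40 °C against 40.3 TPM at 37 °C in B-CPAP, and 35.3 against 21.5 TPM in TPC-1. Both libraries at 40 °C were above the library of their own line at 37 °C, with ratios of 1.60 (interval 1.52 to 1.69) in B-CPAP and 1.64 (interval 1.51 to 1.78) in TPC-1. PSMA3 had 47.9 against 28.5 TPM in B-CPAP and 38.9 against 27.5 TPM in TPC-1, ratios of 1.68 (interval 1.52 to 1.85) and 1.42 (interval 1.26 to 1.59). For PSMA3 the 2 libraries at 40 °C were above both libraries at 37 °C. The limma log2 difference over both lines was 0.68 ± 0.10 (SE) for PSMA4 and 0.61 ± 0.11 for PSMA3, each with an adjusted p of 0.218. It was 0.42 and 0.22 after GC adjustment, and without 1 library, where the line had to be left out of the model, it ran from 0.24 to 1.11 for PSMA4 and from 0.46 to 0.75 for PSMA3. PSMA5 differed more in B-CPAP, with 91.3 against 72.2 TPM (ratio 1.26, interval 1.21 to 1.33), than in TPC-1, with 44.6 against 41.1 TPM (ratio 1.09, interval 1.01 to 1.17). The difference between the lines was not tested. After GC adjustment PSMA5 was lower at 40 °C in both lines, with log2 differences of -0.20 in B-CPAP and -0.11 in TPC-1. PSMA1 had ratios of 1.13 (interval 0.999 to 1.27) in B-CPAP and 1.29 (interval 1.14 to 1.47) in TPC-1. PSMA7, the most abundant alpha subunit, was nearly level, at ratios of 1.01 and 1.05. PSMA2 and PSMA6 rested on few reads: the interval of PSMA2 ran from 1.5 to 4.0 in B-CPAP and from 0.714 to 2.23 in TPC-1, and that of PSMA6 from 0.763 to 1.35 and from 0.531 to 0.996.

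The catalytic subunits of the beta ring were all lower at 40 °C in both lines, also under every other scaling and after GC adjustment. PSMB5, which carries the chymotrypsin-like site, had 297 TPM at 40 °C against 382 TPM at 37 °C in B-CPAP (ratio 0.777, interval 0.745 to 0.811), and 412 against 441 TPM in TPC-1 (ratio 0.933, interval 0.895 to 0.973). PSMB6, which carries the caspase-like site, had 322 against 394 TPM in B-CPAP (ratio 0.817) and 321 against 356 TPM in TPC-1 (ratio 0.902). PSMB7, which carries the trypsin-like site, had 559 against 579 TPM (ratio 0.965) and 614 against 660 TPM (ratio 0.932). All 6 counting intervals lay below 1, while the adjusted p over both lines was 0.249 for PSMB5, 0.233 for PSMB6 and 0.486 for PSMB7. Of the structural beta subunits, PSMB1 was higher at 40 °C in both lines, with ratios of 1.12 and 1.05. It was lower in both after centring and after GC adjustment (log2 differences of -0.20 and -0.10). PSMB2, PSMB3 and PSMB4 were lower in both lines, with ratios from 0.810 to 0.984. PSMB2 in B-CPAP turned higher with quantile normalization and without mitochondrially encoded genes. In TPC-1, quantile normalization left 1 of PSMB2, PSMB3 and PSMB4 level and 2 lower.

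The immunoproteasome subunits also had less RNA at 40 °C, apart from PSMB10 in B-CPAP after GC adjustment, where the log2 difference was 0.14. PSMB8 had 37.7 against 43.7 TPM in B-CPAP (ratio 0.863, interval 0.784 to 0.948) and 62.1 against 71.6 TPM in TPC-1 (ratio 0.868, interval 0.800 to 0.942). PSMB9 had 13.3 against 14.3 TPM and 4.93 against 5.45 TPM, and PSMB10 had 12.7 against 13.9 TPM and 19.8 against 22.4 TPM, all with counting intervals that included 1. The share of PSMB8 in the sum with PSMB5, the subunit it replaces, was 11.3% and 10.2% in B-CPAP at 40 °C and 37 °C, and 13.1% and 14.0% in TPC-1. PSMB9 took 3.97% and 3.49% of its sum with PSMB6 in B-CPAP and 1.51% and 1.51% in TPC-1. PSMB10 took 2.22% and 2.35% of its sum with PSMB7 in B-CPAP and 3.12% and 3.28% in TPC-1. The constitutive subunit made up most of each pair in every library, and the order of the lines, TPC-1 above B-CPAP for the PSMB8 and PSMB10 shares and below it for PSMB9, was the same at both temperatures.

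In the 19S base the 6 ATPases, which unfold the substrate, were divided. PSMC6 had 17.6 TPM at 40 °C against 9.39 TPM at 37 °C in B-CPAP and 15.4 against 9.40 TPM in TPC-1. Its ratios, 1.87 (interval 1.68 to 2.09) and 1.64 (interval 1.45 to 1.86), were the highest of the ATPases, and both libraries at 40 °C were above both at 37 °C. The limma log2 difference of PSMC6 was 0.75 ± 0.13 (SE), with an adjusted p of 0.218, and 0.36 after GC adjustment. PSMC2 had 156 against 113 TPM in B-CPAP (ratio 1.38, interval 1.32 to 1.45) and 35.7 against 30.2 TPM in TPC-1 (ratio 1.18, interval 1.06 to 1.32). PSMC1 had ratios of 1.29 and 1.16. PSMC3 and PSMC4 were lower at 40 °C in both lines, apart from PSMC3 in B-CPAP after GC adjustment (log2 difference 0.04), with ratios of 0.922 and 0.879 for PSMC3 and of 0.841 and 0.932 for PSMC4, and PSMC5 had ratios of 1.08 and 0.977. Among the base subunits without ATPase activity, the scaffold PSMD2 had 709 against 836 TPM in B-CPAP and 951 against 1084 TPM in TPC-1, ratios of 0.847 and 0.878. PSMD1, its partner scaffold, had 137 against 106 TPM in B-CPAP and 149 against 167 TPM in TPC-1. The PSMD1 libraries at 40 °C and 37 °C thus stood in opposite order in the lines. PSMD4, a ubiquitin receptor, was nearly level, with ratios of 1.05 and 0.972.

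The 19S lid includes PSMD14, the deubiquitinase that cuts the ubiquitin chain off the substrate. Of the 8 lid subunits, 5 were higher at 40 °C in B-CPAP and 4 in TPC-1, counts that became 3 and 4 with centring and 0 and 2 after GC adjustment. PSMD14 had 56.6 TPM at 40 °C against 38.6 TPM at 37 °C in B-CPAP (ratio 1.47, interval 1.39 to 1.55) and 41.9 against 31.5 TPM in TPC-1 (ratio 1.33, interval 1.24 to 1.43). PSMD12 had ratios of 1.39 and 1.19, and PSMD6 had 33.9 against 25.9 TPM and 11.9 against 9.84 TPM, ratios of 1.31 and 1.20. PSMD7 was higher in both lines by smaller amounts, with ratios of 1.12 and 1.09, and lower in both after GC adjustment (log2 differences of -0.10 and -0.01). The other lid subunits PSMD3, PSMD8 and PSMD13 were lower in both lines, with ratios from 0.800 to 0.939, and PSMD11 had ratios of 1.09 and 0.939.

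Of the genes that assemble, activate or inhibit the particle, PSMF1, an inhibitor of the 20S core, had 62.5 TPM at 40 °C against 75.9 TPM at 37 °C in B-CPAP (ratio 0.823, interval 0.779 to 0.869) and 37.4 against 46.5 TPM in TPC-1 (ratio 0.803, interval 0.743 to 0.868). PSME1 and PSME2, which form the interferon-inducible cap, had intervals that included 1 in both lines. PSME3, the nuclear relative of that cap, had ratios of 0.957 and 0.922. PSME4, a nuclear activator that caps the core alone, had 21.1 against 15.6 TPM in B-CPAP (ratio 1.35, with an interval above 1) and 31.4 against 32.5 TPM in TPC-1 (ratio 0.966, interval 0.907 to 1.03). Among the 19S assembly chaperones, PSMD10 had 48.4 against 35.2 TPM in B-CPAP (ratio 1.38) and 52.7 against 54.7 TPM in TPC-1 (ratio 0.963), PSMD5 had ratios of 1.17 and 0.996, and PSMD9 had intervals that included 1. Of the chaperones that build the 20S core, PSMG1 had ratios of 1.17 and 1.15, and its partner PSMG2 had 75.6 against 59.2 TPM in B-CPAP (ratio 1.28) and 55.1 TPM at both temperatures in TPC-1. PSMG3 had 70.0 against 86.8 TPM in B-CPAP and 26.9 against 22.7 TPM in TPC-1, in opposite order in the lines. Its partner PSMG4 had 3.70 against 4.68 TPM and 2.87 against 2.95 TPM. PSMC3IP, a recombination protein that binds PSMC3, had 17.3 against 12.7 TPM in B-CPAP (ratio 1.36, interval 1.15 to 1.61) and 4.24 against 2.76 TPM in TPC-1 (ratio 1.53, interval 1.02 to 2.32). PSME3IP1, which binds PSME3, had ratios of 1.09 and 1.01.

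The members that were higher at 40 °C were mostly those with AT-rich exons. Across the 48 members, the temperature difference was lower at higher exon GC content, at a Spearman's rho of -0.81 in B-CPAP and -0.51 in TPC-1, and across the 11819 tested protein-coding genes with a GC value rho was -0.81 and -0.59. These are descriptions across genes of the same pair of libraries. Of the 18 members with under 45% GC, 17 were higher at 40 °C in B-CPAP and 12 in TPC-1, with median log2 differences of 0.39 and 0.14. Of the 30 members at 45% GC or more, 10 were higher in B-CPAP and 8 in TPC-1, with medians of -0.09 and -0.09. Protein-coding genes in the same classes had medians of 0.42 and 0.16 below 45% and of -0.10 and -0.05 at 45% or more. The median GC content was 40.1% in the alpha ring and 51.8% among the catalytic subunits, so these roles differed in GC content as they did in direction.

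**Figure D4:**
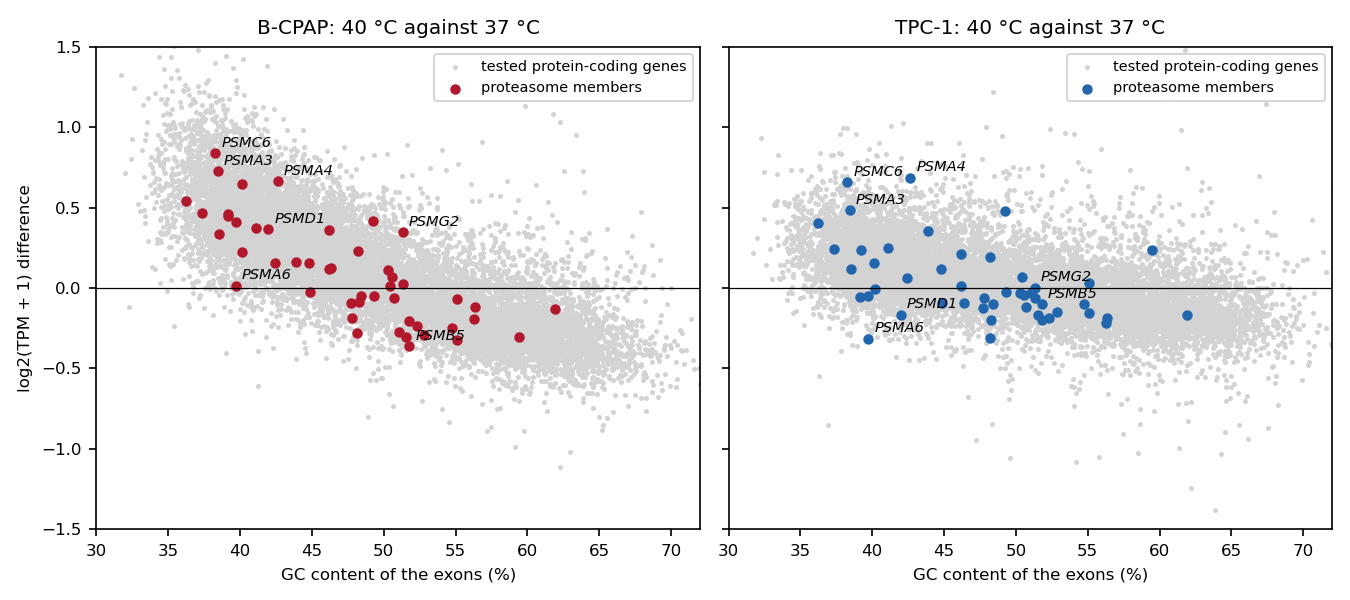
Difference of log2(TPM + 1) between 40 °C and 37 °C against the GC content of the exons, for proteasome members (coloured) and tested protein-coding genes within the axis limits (grey), in B-CPAP and in TPC-1. The members follow the downward slope of the grey genes in both lines, with PSMA4 and PSMC6 near its upper edge in TPC-1.

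After adjustment for GC content, a smooth curve over genes was removed from each library. In B-CPAP 2 members were then higher by 25% or more and 4 lower by 20% or more, and in TPC-1 4 were higher and 3 lower. The share of all genes past that threshold after adjustment was not taken. Members above 0 were 29.2% in B-CPAP, against 46.6% of all genes, and 27.1% in TPC-1, against 42.5%. PSMA4 then had log2 differences of 0.31 in B-CPAP and 0.52 in TPC-1, PSMC6 of 0.29 and 0.42, and PSMC3IP of 0.33 and 0.42, all still above 0. PSMF1 had -0.40 and -0.39, and PSMA6 -0.47 and -0.52. The adjustment turned the difference of 16 members below 0 in B-CPAP and of 7 in TPC-1, and of PSMB10, PSMC3 and PSME1 above 0 in B-CPAP. PSMD14, at 36.2% GC the most AT-rich member, had -0.08 and 0.13, and PSMC2 had -0.05 and 0.02. No member was called by limma on the adjusted values, where the smallest adjusted p was 0.407.

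Between the lines the proteasome genes differed in both directions. By limma with temperature as a block, 18 members were higher in B-CPAP than in TPC-1, 37.5% of the members against 29.9% of all genes tested, and 12 were lower, 25% against 32.8%. The alpha ring had 3 higher and 0 lower, the ATPases 4 and 0, the lid 4 and 2, and the base subunits without ATPase activity 0 and 2. By fold, 7 members were higher in B-CPAP by 2-fold or more at both temperatures, 14.6% against 13.5% of all genes, and 1 member, PSME1, was lower, 2.08% against 14.4%. With no filter on low values the same fit called 0 members, as it did 0 of all 58884 genes, with a smallest adjusted p of 0.0753. At an unadjusted p under 0.05 it held 27 of 50 members and 9346 of the 58884 genes. Without the TPC-1 library at 40 °C the fit called 6 members in all (12.5% against 19.5% of all genes), without that at 37 °C 5 (10.4% against 20.2%), without the B-CPAP library at 40 °C 16 (33.3% against 38.4%) and without that at 37 °C 14 (29.2% against 34.2%). On simulated data the fit over all 4 libraries made more false calls than its threshold allows. Far fewer genes were changed in the simulation than were called between the lines, so the share of false calls here is not known.

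**Figure D5:**
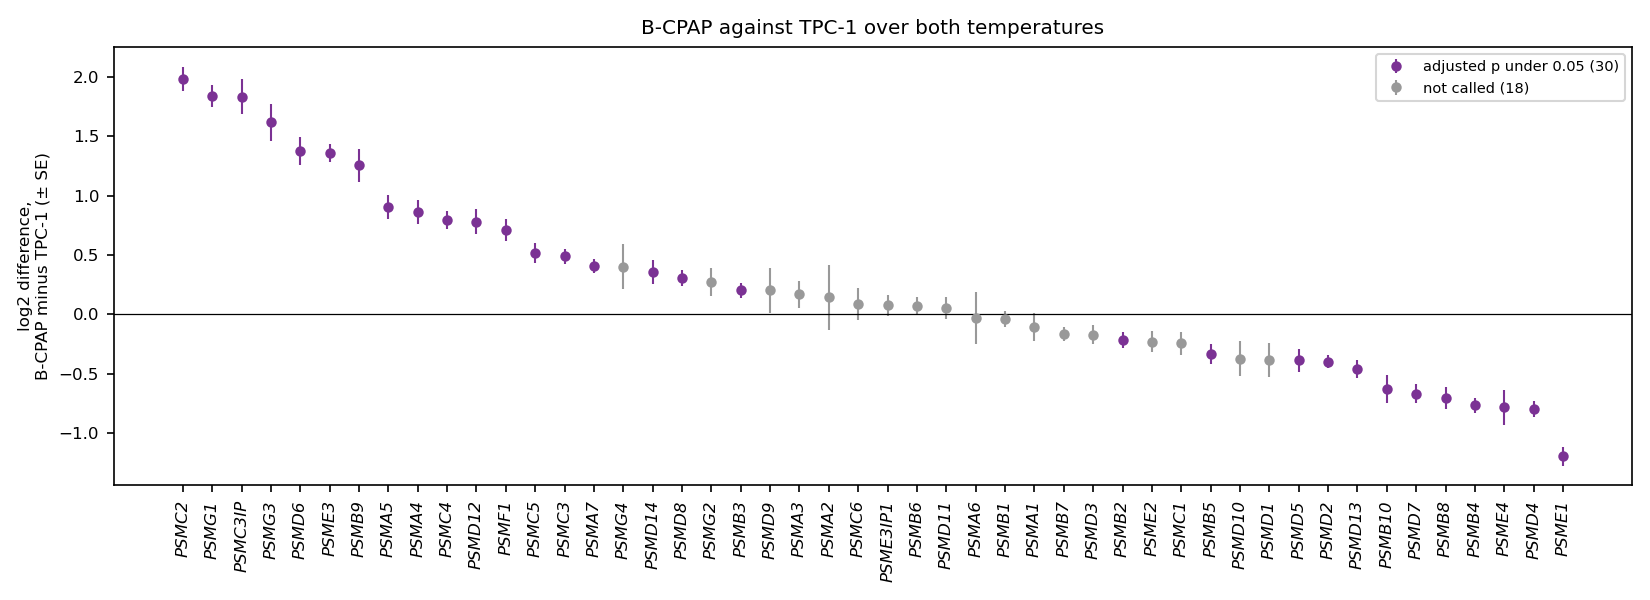
Log2 difference of each tested member between B-CPAP and TPC-1 over both temperatures, ordered by size, with bars for ± SE from limma. The 30 members with an adjusted p under 0.05 (purple) include the first 15 from the left, led by PSMC2, and PSME1 at the right end.

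PSMC2, the ATPase, had the largest difference. It had 156 and 113 TPM in B-CPAP at 40 °C and 37 °C, against 35.7 and 30.2 TPM in TPC-1, a log2 difference of 1.98 ± 0.10 (SE, adjusted p = 0.00013 by limma), and its 2 B-CPAP libraries were both far above the 2 of TPC-1. The other ATPases called were PSMC4 (log2 difference 0.80), PSMC5 (0.52) and PSMC3 (0.49), while PSMC1 and PSMC6, at -0.24 and 0.09, were not called. The lid subunit PSMD6 had 33.9 and 25.9 TPM in B-CPAP against 11.9 and 9.84 TPM in TPC-1, a log2 difference of 1.38 ± 0.12 (adjusted p = 0.0006).

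Of the 4 assembly chaperones of the 20S core, PSMG1 and PSMG3 were called higher in B-CPAP and PSMG2 and PSMG4 were not called. PSMG1, which with PSMG2 builds the alpha ring, had 124 and 106 TPM in B-CPAP against 33.5 and 29.2 TPM in TPC-1, a log2 difference of 1.84 ± 0.09 (adjusted p = 0.00012 by limma). PSMG2, with 75.6 and 59.2 TPM in B-CPAP against 55.1 and 55.1 TPM in TPC-1, was not called (adjusted p = 0.0951). PSMG3 had 70.0 and 86.8 TPM in B-CPAP against 26.9 and 22.7 TPM in TPC-1, a log2 difference of 1.62 ± 0.15 (adjusted p = 0.00079). PSMG4, its partner, was not called at 3.70 and 4.68 TPM against 2.87 and 2.95 TPM. In each chaperone pair, then, 1 partner was called in this fit and the other was not. All 4 were called higher with libraries centred on their medians (35.4% of all genes called higher) and with protein-coding genes alone (34%). PSMG2 was also called with a mean TPM of at least 5 (33.7%) and without mitochondrially encoded genes (32.3%). The difference between partners was not tested.

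Both the activators and the immunoproteasome subunits were divided between the lines, with 1 called higher and 2 lower in B-CPAP in each group. PSME3 had 259 and 271 TPM in B-CPAP against 98.7 and 107 TPM in TPC-1, a log2 difference of 1.36 ± 0.07 (adjusted p = 0.00016 by limma). PSME1 had 93.1 and 97.6 TPM in B-CPAP against 222 and 217 TPM in TPC-1, a log2 difference of -1.20 ± 0.08 (adjusted p = 0.00028). PSME2, which forms the heptamer with PSME1, differed little, with 62.5 and 61.4 TPM against 71.3 and 74.5 TPM (log2 difference -0.23, adjusted p = 0.0724). PSME4 was lower in B-CPAP, at 21.1 and 15.6 TPM against 31.4 and 32.5 TPM, a log2 difference of -0.78 ± 0.15 (adjusted p = 0.0079).

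PSMB9 was higher in B-CPAP, at 13.3 and 14.3 TPM against 4.93 and 5.45 TPM, a log2 difference of 1.26 ± 0.14 (adjusted p = 0.0013 by limma). PSMB8, its neighbour on chromosome 6, was lower, at 37.7 and 43.7 TPM against 62.1 and 71.6 TPM, a log2 difference of -0.70 ± 0.09 (adjusted p = 0.0022). PSMB10 was lower as well, at 12.7 and 13.9 TPM against 19.8 and 22.4 TPM (log2 difference -0.63, adjusted p = 0.0077). PSMB8 and PSMB9 share 139 exon bases on opposite strands, none of them coding in PSMB9. TAP1, which starts beside PSMB9 in the opposite direction, had 28.7 and 34.1 TPM in B-CPAP against 31.1 and 33.9 TPM in TPC-1 (log2 difference -0.05, adjusted p = 0.693). The promoter windows of PSMB9 and TAP1, which overlap only by their first few bases, thus stood beside a gene that was called between the lines and a gene that was not. Of the 7 members with the interferon core in a window, PSMA4 was called higher in B-CPAP, PSMB4, PSMB8, PSMB10 and PSME1 lower, and PSME2 and PSMG4 were not called. Of all genes tested, 29.9% were called higher and 32.8% lower in that fit, and a link between the core and the lines was not tested.

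Among the constitutive counterparts, PSMB5 was lower in B-CPAP, with a log2 difference of -0.34 ± 0.09 (adjusted p = 0.0213 by limma). Among fits with all 4 libraries and a filter on low values, the call was lost with centring, without mitochondrially encoded genes, without the intensity trend and without the block. In these limma fits adjusted p ran from 0.0542 to 0.149. By the same test PSMB6 and PSMB7 were not called, at 0.07 and -0.16. PSMB4, a structural beta subunit, had 491 and 560 TPM in B-CPAP against 874 and 914 TPM in TPC-1, a log2 difference of -0.77 ± 0.06 (adjusted p = 0.00053). PSMD4, the ubiquitin receptor, had 223 and 213 TPM against 374 and 385 TPM, a log2 difference of -0.80 ± 0.07 (adjusted p = 0.00063), and PSMD7 had a log2 difference of -0.67. PSMA5 and PSMA4 were higher in B-CPAP by 0.91 and 0.86 on the log2 scale. PSMC3IP had 17.3 and 12.7 TPM in B-CPAP against 4.24 and 2.76 TPM in TPC-1, a log2 difference of 1.83 ± 0.15 (adjusted p = 0.00048). Fibroblast markers were also unequal between the lines: COL1A1, COL1A2, COL3A1, LUM and PDGFRB, the 5 of 6 that were tested, summed to 46.5 and 38.0 TPM in B-CPAP against 9.56 and 9.13 TPM in TPC-1, where COL3A1 and LUM were listed at 0, and DCN reached at most 0.159 TPM. At each temperature 4 of these 5 markers were higher in B-CPAP and 1 was lower (log2 difference of -0.45 at 40 °C and -0.48 at 37 °C). Their part in the differences between the lines was not tested.

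Outside the symbol rule, 45 genes that make, regulate or feed the proteasome were taken from a list. None was called between temperatures by limma (0 of 45 higher and 0 lower, 0% of all genes), and between the lines 11 were higher (24.4% against 29.9% of all genes) and 10 lower (22.2% against 32.8%) in B-CPAP. NFE2L1 had 218 and 211 TPM in B-CPAP at 40 °C and 37 °C, and 186 and 186 TPM in TPC-1, so its RNA was nearly level between temperatures. DDI2, the protease that activates NFE2L1, had 7.77 against 4.46 TPM in B-CPAP and 5.96 against 5.17 TPM in TPC-1. BACH1, which represses antioxidant genes, had 9.16 against 4.48 TPM and 5.83 against 5.16 TPM. In TPC-1 the counting intervals of both included 1 (0.9998 to 1.33 for DDI2, 0.944 to 1.35 for BACH1). After GC adjustment their log2 differences were 0.32 and 0.43 in B-CPAP and 0.006 and -0.05 in TPC-1. Of the genes that supply ubiquitin, RPS27A, a ubiquitin fused to a ribosomal protein, had 405 against 281 TPM and 364 against 234 TPM. UBB, a polyubiquitin gene, had ratios of 0.898 in B-CPAP and 0.949 in TPC-1. UBA1, the main ubiquitin-activating enzyme, had 358 against 452 TPM and 428 against 500 TPM, and UBA6, the alternative activating enzyme, had 21.4 against 10.6 TPM and 17.5 against 14.9 TPM. Of the 6 listed genes for ubiquitin and its activation, 2 were higher at 40 °C in each line. After GC adjustment 2 were higher in B-CPAP and 1 in TPC-1. ADRM1, a ubiquitin receptor, had 272 against 369 TPM and 98.0 against 115 TPM. UCHL5, the deubiquitinase that ADRM1 carries, had 20.1 against 13.7 TPM and 16.6 against 12.9 TPM. Each of these 2 partners stood in the same order of temperatures in both lines, and the order of ADRM1 was opposite to that of UCHL5, but after GC adjustment both were lower at 40 °C in B-CPAP (log2 differences of -0.13 for ADRM1 and -0.06 for UCHL5). Between the lines, ECPAS, which tethers and dismantles the 26S particle, had 43.2 and 32.5 TPM in B-CPAP against 132 and 131 TPM in TPC-1 (log2 difference -1.78, adjusted p = 0.00032 by limma), and ADRM1 was higher in B-CPAP (log2 difference 1.57, adjusted p = 0.00016).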

How the data were processed

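Libraries were made from RNeasy Plus RNA with TruSeq v2, a kit without strand marking, per the labels' protocols. The authors deposited TPM for 58884 Ensembl genes in 4 libraries, each summing to 1000000. Per the submitters' processing notes, Trimmomatic 0.38, featureCounts 2.0.0 and GRCh38 were used; the aligner, the annotation and the counting options go unnamed in these sources. GENCODE 29, which held 58611 of the IDs, gave lengths, GC contents and overlaps. TPM times length gave values that were whole within 0.02 reads for 90.5 to 92.0% of values up to 20 reads and for 65.8 to 67.5% between 20 and 200, from which depth was estimated; Clopper-Pearson intervals cover counting error only, since reads are not independent molecules.

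The 14912 genes that averaged 1 TPM or more were tested on log2(TPM + 1), a scale that understates changes of low genes. limma 3.58.1 (R 4.3.3) was run with an intensity trend, two-sided, with Benjamini-Hochberg adjustment over all of them. Temperature was fitted with the line as a block and the line with temperature as a block, which leaves 1 residual degree of freedom. No label describes separate cultures, and p-values measure only the spread between these libraries. On simulated data with known changes, the estimated difference had the right sign for most changed genes, whether or not they were called. A larger share of calls was false than the adjusted threshold of 0.05 allows. Far fewer genes were changed there than were called between the lines. Members, lists and the rule for named genes (members 25% higher or 20% lower, called, catalytic, immunoproteasome, activator or assembly, with the rest by range and count) were chosen with earlier results of these data known. Alternatives were other pseudocounts (0.1 and 5), other filters, 3 other scalings, GC adjustment, protein-coding genes alone, other limma settings, no block and leaving out each library. One more, the members with under 10% shared coding sequence, was chosen after seeing the data. Some genes of the marker and pathway lists are not reported here.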

Additional observations from a re-analysis of the deposited data

Results flagged for a closer look

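The 3 members named here had TPM ratios of 40 °C to 37 °C on opposite sides of 1 in the lines, with both counting intervals excluding 1. PSMD1, a scaffold of the 19S base, had a ratio of 1.29 in B-CPAP and 0.891 in TPC-1. PSMD11, a lid subunit, had 1.09 in B-CPAP and 0.939 in TPC-1. PSMG3, an assembly chaperone, had 0.806 in B-CPAP and 1.19 in TPC-1. With 1 library a group the difference between the lines was not tested, and the intervals cover counting error only. After GC adjustment the log2 differences of PSMD1 were -0.02 in B-CPAP and -0.34 in TPC-1, those of PSMD11 were -0.07 and -0.20, and those of PSMG3 were -0.08 and 0.33.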

How the results depend on the processing

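The block on line or temperature pairs the libraries. No paired analysis was possible by replicate number because the labels give none. Between temperatures, limma called 0 members under 15 of the 17 alternatives. A mean TPM of at least 5 called 4 higher (PSMA3, PSMA4, PSMC6, PSMD14), 5.02% of all genes being called higher in that fit, and protein-coding genes alone called 6 higher (also PSMC2 and PSMD12, against 7.44% of all genes) and 2 lower (PSMB3 and PSMD2, against 3.97%); fewer genes entered these fits. The log2 difference of PSMC2 over both lines was -0.013 after GC adjustment and ran from -0.70 to 1.40 without 1 library, where the line had to be left out of the model, and that of PSMD12 was -0.061 and ran from -0.091 to 0.80.

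Within the lines, the median log2 difference of the members became 0.013 in TPC-1 without mitochondrially encoded genes, and in B-CPAP -0.14 with centring on the median and -0.083 with GC adjustment. Centring moved the median of all genes to -0.10 in B-CPAP and -0.07 in TPC-1, a shift that leaves the gap of the members to it as it was, at 0.04 and 0.06 below. With quantile normalization the members' median lay 0.09 above that of all genes in B-CPAP and 0.002 below it in TPC-1. In B-CPAP, members past the threshold of 25% higher or 20% lower numbered 5 higher and 12 lower with centring, 2 and 4 with GC adjustment, and 4 and 0 at a 1.5-fold threshold, and 3 were lower at a pseudocount of 0.1. In TPC-1, 2 were higher at a 1.5-fold threshold, and members lower numbered 1 at a pseudocount of 0.1, 2 with centring, 1 with quantile normalization and 3 with GC adjustment. The share of all genes past the threshold was not taken under these settings. With centring, members above 0 were 35.4% in B-CPAP, against 42% of all genes, and 31.2% in TPC-1, against 39.4%. GC adjustment turned 16 log2 differences of B-CPAP below 0, of which 8 had been past the threshold, those of PSMA5 (-0.20), PSMC2 (-0.046), PSMD1 (-0.017), PSMD6 (-0.047), PSMD10 (-0.061), PSMD12 (-0.12), PSMD14 (-0.081) and PSME4 (-0.073).

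Between the lines, no filter on low values gave 0 members higher and 0 lower, with PSMB8 at -0.70, PSMB9 at 1.26, PSMB5 at -0.34 and PSMB10 at -0.63 no longer called (adjusted p from 0.0853 to 0.473); the cause was not tested. Among fits with all 4 libraries, PSMB5 also lost its call with centring (-0.21), without mitochondrially encoded genes (-0.25), without the intensity trend (-0.34) and without the block (-0.34). In these limma fits adjusted p ran from 0.0542 to 0.149. PSMB7 (-0.16) gained a call with a mean TPM of at least 5, with protein-coding genes alone and with robust empirical Bayes (adjusted p from 0.0419 to 0.0496). Without 1 library, a fit in which temperature had to be left out and a lone library of a line was taken to vary like the others, members called numbered from 4 to 10 higher and from 1 to 7 lower. The log2 differences then ran from -0.81 to -0.60 for PSMB8, from 1.20 to 1.32 for PSMB9, from -0.52 to -0.16 for PSMB5, from -0.71 to -0.54 for PSMB10 and from -0.071 to 0.22 for PSMB6. Of the 37 tested members with under 10% shared coding sequence, 15 were higher (40.5% against 29.9% of all genes) and 9 lower (24.3% against 32.8%). Depth limits the members with few reads, and PSMA2 had the widest counting interval in both lines.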
